A study of Rattus norvegicus with 56 samples.

Results

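The genes described here encode the subunits of the oxidative phosphorylation system, the respiratory chain and ATP synthase of mitochondria. They were found by symbol: names of the Nduf, Sdh, Uqcr, Cyc1, Cox4i to Cox8 and Atp5 families picked out 81 of the 17337 genes of a rat liver count table. By complex these were 35 genes of complex I, 4 of complex II, 9 of complex III, 16 of complex IV and 17 of complex V. After a filter on low counts 72 of the 81 were tested. The others were Ndufa1, Cox6c-ps1 and Cox8c with 0 reads in all 56 libraries, and Atp5f1, Ndufa4l2, Cox6b2, Cox4i2, Cox7a2 and Cox6a2 with 40 to 385 reads over all libraries. Subunits made from mitochondrial DNA are not analysed here.

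In this system electrons from nutrients enter at complex I (NADH dehydrogenase) and complex II (succinate dehydrogenase, which is also an enzyme of the TCA cycle), pass through ubiquinone to complex III (cytochrome bc1) and through cytochrome c to complex IV (cytochrome c oxidase), which hands them to oxygen. Complexes I, III and IV pump protons across the inner mitochondrial membrane, and complex V (ATP synthase) makes ATP from their return. In the liver the chain oxidizes the products of fatty acid and amino acid breakdown and carries the energy cost of glucose synthesis. A few names caught by the symbol rule are not classical subunits: Atp5s and Atp5sl are homologues of coupling and assembly factors, Cox7a2l is a factor in joining complexes III and IV, Ndufa10l1 is a copy of Ndufa10, and the protein of Ndufa4, counted here with complex I by its symbol, is known as a part of complex IV.

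Livers of Sprague-Dawley rat offspring were taken at day 180, from males and females, at zeitgeber time 4 (ZT4, light phase) or ZT16 (dark phase, when rats are active and eat). Control animals (CON, n = 12) came from dams on regular chow and ate it throughout. The HFhf animals (n = 14) were exposed to a Western diet ad libitum with 25% fructose water, which the dams received from gestation day 11 on. Dams of both IUGR groups (intrauterine growth restriction) received 50% fewer calories from gestation day 10 until birth, followed by regular chow (IUGR-RC, n = 15) or the HFhf diet (IUGR-HFhf, n = 15). The 4 diets, 2 sexes and 2 times gave 16 groups of 3 or 4 libraries. The labels do not tie libraries to litters, so p-values measure the spread between these libraries only.

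Counted reads per library ranged from 5.55 M to 19.1 M (median 9.17 M). The IUGR-RC libraries had the highest median, 13.4 M against 8.54 M for CON, 8.46 M for HFhf and 7.79 M for IUGR-HFhf, but ranged from 5.55 M to 19.1 M. Depth was uneven within CON, at 16.2 M to 18.7 M in ZT4 females and 5.55 M to 9.05 M in males. Reads of the Y-linked gene Eif2s3y numbered 179 to 1946 in males and 0 or 1 in females, as labelled. The summed level of 10 hepatocyte markers ranged from 158622 to 460887 CPM (reads of a gene per 1e6 reads, on library sizes scaled by the TMM method). Alb alone was most of that sum in each library, at 93792 to 388113 CPM. The IUGR-RC libraries carry sample names of another series and include no CON library, so diet history and library batch cannot be told apart there. Rmrp and Terc, RNAs without a poly(A) tail, summed to 1077 to 3050 CPM in CON, 951 to 3238 in HFhf and 744 to 4076 in IUGR-HFhf, but to 2.29 to 10.7 in IUGR-RC. The part of such a difference in library type in the results below was not tested. Skeletal muscle markers (12 genes) summed to at most 9.35 CPM except in 3 libraries: 5289 in female ZT4 IUGR-RC replicate 2, 586 in male ZT16 HFhf replicate 3 and 65.9 in female ZT4 IUGR-HFhf replicate 2. An earlier report on these data also set apart female ZT4 IUGR-RC replicate 3, and the results were computed with and without these 4 libraries.

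The reads of the 81 genes made up 0.646% to 0.781% of all reads in CON, 0.656% to 0.894% in HFhf, 0.623% to 0.919% in IUGR-HFhf and 0.773% to 1.05% in IUGR-RC. As summed CPM the level was 6617 ± 382 in CON (SD, n = 12; lowest 5930, median 6555, highest 7180) and 7440 ± 705 in HFhf (n = 14; 5941, 7536 and 8557). It was 7609 ± 890 in IUGR-HFhf (n = 15; 6152, 7679 and 8937) and 9941 ± 946 in IUGR-RC (n = 15; 7973, 10203 and 11090). HFhf and IUGR-HFhf libraries overlapped the CON range, and every IUGR-RC library lay above it. The order of the 4 diets was the same in the sums of each complex: complex I stood at 1738 ± 101, 1887 ± 184, 1936 ± 247 and 2687 ± 367 CPM in CON, HFhf, IUGR-HFhf and IUGR-RC, and complex V at 2649 ± 219, 3062 ± 283, 3094 ± 360 and 3971 ± 278. HFhf and IUGR-HFhf did not differ beyond their spread in any of these sums.

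The groups of each sex and time gave these sums. Males at ZT4 stood at 6330 ± 359 CPM in CON (n = 3), 6433 ± 674 in HFhf (n = 3) and 6475 ± 408 in IUGR-HFhf (n = 3), with overlapping ranges. Males at ZT16 stood at 6622 ± 487 in CON (n = 3), 7954 ± 508 in HFhf (n = 4) and 8194 ± 441 in IUGR-HFhf (n = 4). Females at ZT4 stood at 6734 ± 412 in CON (n = 3), 7474 ± 257 in HFhf (n = 3) and 7250 ± 823 in IUGR-HFhf (n = 4). At ZT16 females stood at 6782 ± 289, 7657 ± 343 and 8235 ± 527 (n = 3, 4 and 4). The IUGR-RC groups stood at 10354 ± 790 and 10398 ± 987 in males and 9550 ± 1372 and 9365 ± 468 in females at ZT4 and ZT16. These sums weight the genes by their level and are given without a test. In liver tissue, fewer cells of a type and less RNA per cell cannot be told apart.

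**Figure D1:**
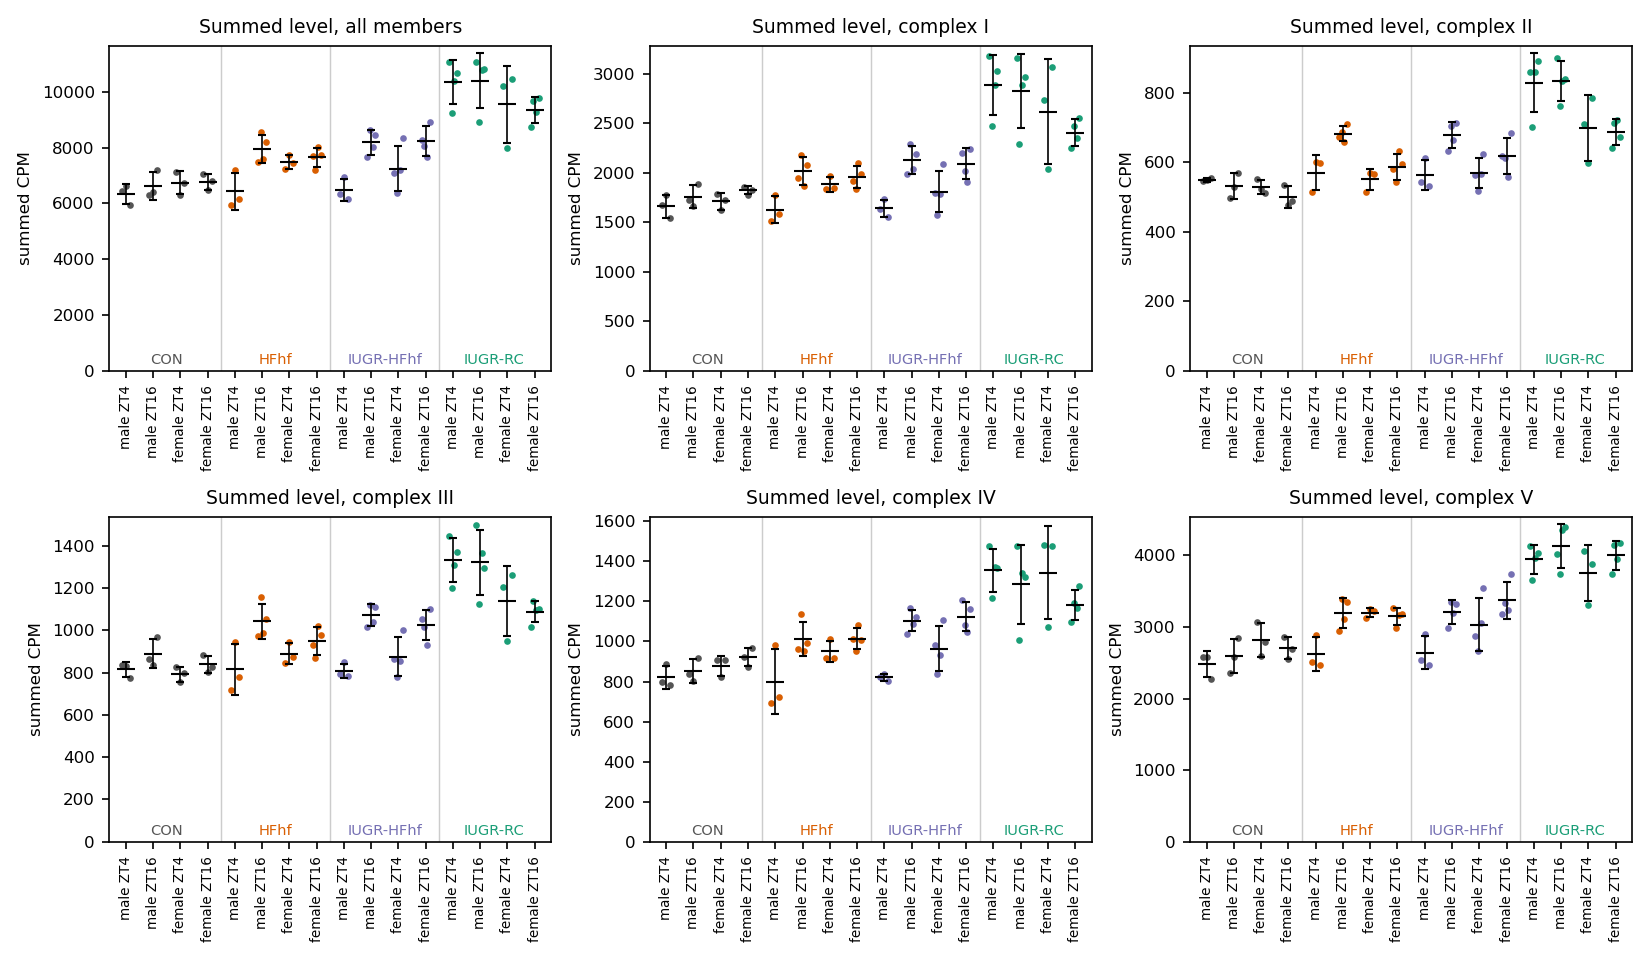
Summed CPM of the 81 genes in each of the 56 libraries, by diet, sex and time. Points are libraries, and bars are the group mean ± SD on an axis that starts at 0. The IUGR-RC libraries lie at 7973 CPM and above, over the highest CON library at 7180.

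The first comparison asked how the Western diet with fructose, averaged over sex and time, differed from regular chow. In HFhf 11 of the 72 tested subunit genes rose and 0 fell (edgeR quasi-likelihood test, Benjamini-Hochberg adjusted p under 0.05 over 11047 genes). Of all tested genes 4.31% rose and 3.63% fell. The 11 were Ndufs3 and Ndufa9 of complex I, Sdha and Sdhb of complex II, Cyc1, Uqcrc1 and Uqcrfs1 of complex III, Cox8a of complex IV, and Atp5a1, Atp5b and Atp5g3 of complex V. By complex that was 2 of 33, 2 of 4, 3 of 9, 1 of 10 and 3 of 16 tested genes. The median log2 fold change of the 72 was 0.119, against 0.006 over all genes, and 66 of them were positive. An unadjusted p under 0.05 was found for 27, and the share of all genes at that threshold is not given. The lowest were Ndufb3 at -0.13 (adjusted p = 0.626) and Ndufa6 at -0.11 (adjusted p = 0.527) in the same edgeR test.

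Cox8a, the subunit VIII of cytochrome c oxidase made in most tissues, changed furthest. Its level was 44.74 CPM in the lowest, 52.20 in the median and 64.60 in the highest CON library, and 58.36, 68.34 and 86.95 in HFhf. Of the 14 HFhf libraries 12 lay above the highest CON library, in both sexes and at both times. The log2 fold change was 0.39 (SE 0.0734, edgeR adjusted p = 0.000231), and the call held under each of 36 other settings or left-out libraries.

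Atp5g3 was next (0.33, with its copies further on), and other called genes are given here by complex. Atp5a1, the α subunit of the ATP synthase head, stood at 483.2, 528.7 and 607.8 CPM in CON (lowest, median, highest) and 560.8, 622.1 and 661.7 in HFhf, with 8 of 14 libraries above the CON range; its log2 fold change was 0.22 (SE 0.0463, edgeR adjusted p = 0.00118). Cyc1, the cytochrome c1 of complex III, went from a median of 85.67 to 105.1 CPM with 5 of 14 libraries above the CON range (0.25, SE 0.0586, edgeR adjusted p = 0.0041). Sdha, the flavoprotein of succinate dehydrogenase, went from a median of 228.6 to 270.3 CPM with 3 of 14 above the range (0.16, SE 0.0448, edgeR adjusted p = 0.0147). Ndufs3, a core subunit of the matrix arm of complex I, went from 47.06 to 55.40 CPM, 6 of 14 above (0.18, SE 0.0583, edgeR adjusted p = 0.0375), a call lost in 18 of 36 settings or left-out libraries. All of these ranges overlap with CON.

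The count of 11 depended on scaling and on single libraries. With total counts as library size, which placed the median of all genes at -0.094 and that of the subunit genes at 0.016, 1 gene, Cox8a, was called. The summed hepatocyte markers, mostly Alb, had medians of 186468 CPM in CON, 234243 in HFhf and 220882 in IUGR-HFhf. Their part in these results was not tested. The count was 7 without male ZT16 CON replicate 2 and 7 without male ZT16 HFhf replicate 4, and 17 with limma-voom. The share of all genes called in such other fits is not given, so their counts show only how the count depends on the fit.

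The next comparison set IUGR-HFhf, with restricted calories before birth and the HFhf diet after it, against CON. There 21 of the 72 rose and 0 fell, against 5.80% and 4.68% of all genes. All 4 tested subunits of succinate dehydrogenase were among them, Sdha at 0.16, Sdhb at 0.24, Sdhc at 0.20 and Sdhd at 0.24 on the log2 scale. The others were 6 of 33 in complex I (Ndufs3, Ndufa8, Ndufa9, Ndufb2, Ndufb5, Ndufv2), 2 of 9 in complex III (Cyc1, Uqcrc1), 3 of 10 in complex IV (Cox8a, Cox5b, Cox6a1) and 6 of 16 in complex V (Atp5a1, Atp5b, Atp5d, Atp5o, Atp5g2, Atp5g3). The median of the 72 was 0.160, against 0.005 over all genes, and 68 were positive. With total counts 7 were called and with limma-voom 32.

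Cox8a again changed furthest among the called genes, from a CON median of 52.20 CPM to 57.06, 74.65 and 94.88 in the lowest, median and highest IUGR-HFhf library. Of the 15 libraries 13 lay above the CON range (log2 fold change 0.46, SE 0.0723, edgeR adjusted p = 1.22e-05). Atp5a1 stood at 553.6, 611.4 and 752.2 CPM with 11 of 15 above the range (0.23, SE 0.0456, edgeR adjusted p = 0.000369), and both calls held under every setting run. Atp5o, which links the ATP synthase head to its stalk, went from a median of 119.7 to 149.5 CPM, 11 of 15 above (0.32, SE 0.0655, edgeR adjusted p = 0.000699). Cyc1 went to a median of 111.4 CPM, 9 of 15 above (0.26, SE 0.0577, adjusted p = 0.00172), and Ndufs3 to 59.41 CPM, 9 of 15 above (0.24, SE 0.0573, adjusted p = 0.00365). Sdhb, the iron-sulfur subunit of complex II, went from 111.7 to 130.0 CPM, 8 of 15 above (0.24, SE 0.0667, adjusted p = 0.0118). Cyc1 and Ndufs3 lost the call with total counts (adjusted p = 0.0755 and 0.0608). Ndufa12 did not pass (0.35, adjusted p = 0.0944), and among all 72 Atp5s had the lowest fold change (-0.15, adjusted p = 0.428).

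HFhf and IUGR-HFhf were compared with the same CON libraries, so their similarity is not independent evidence. Of the genes called, 10 were called in both, and Uqcrfs1 in HFhf alone. Compared directly, IUGR-HFhf and HFhf differed in 0 of the 72 genes in edgeR, DESeq2 and limma-voom, with 1 at an unadjusted p under 0.05. The median difference was 0.043. Of all genes 0.0362% were higher and 0.0181% lower in IUGR-HFhf, so few genes of any kind passed this comparison. These groups differ in growth restriction and also in the diet before birth, as only HFhf dams received the Western diet from gestation day 11.

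The c subunit, which forms the rotor ring of ATP synthase, is made from 3 genes with the same mature protein. Atp5g3 rose in HFhf (median 143.6 CPM in CON, 185.8 in HFhf; log2 fold change 0.33, SE 0.0774, edgeR adjusted p = 0.00379) and in IUGR-HFhf (197.7; 0.31). Atp5g2 rose in IUGR-HFhf, from a median of 83.13 to 100.8 CPM (0.27). Atp5g1 passed in neither, with medians of 60.36, 73.49 and 78.21 CPM in CON, HFhf and IUGR-HFhf and ranges that overlap. That Atp5g1 differed from its copies was not tested.

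**Figure D2:**
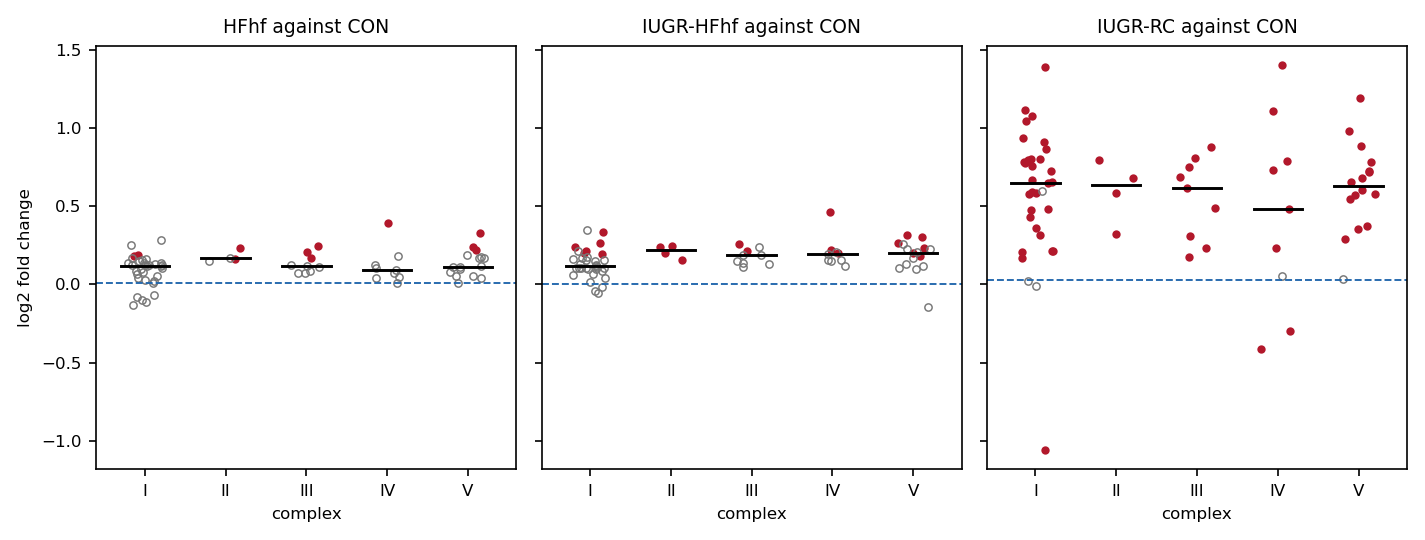
Log2 fold change against CON of each tested subunit gene except Cox8b, by complex, as the mean of the 4 sex and time strata. Filled red points have an edgeR adjusted p under 0.05, open grey points do not, black bars are the median of a complex, and the blue dashed line is the median of all genes tested. No called point lies below 0 in HFhf or IUGR-HFhf, and 3 do in IUGR-RC, 1 in complex I and 2 in complex IV. Of all genes 3.63%, 4.68% and 29.9% were called lower in HFhf, IUGR-HFhf and IUGR-RC.

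Promoter windows of 300 bases (250 before to 50 after the start of the gene, RefSeq, build GRCr8, while the reads were mapped to rn6) were found for 68 of the 81 genes, 15 of them by synonym. Each was searched on both strands for the letters known to be bound by 4 factors of mitochondrial genes: GCGCANGCG (NRF1), CCGGAAG (ETS family, with GABPA), AAGATGGCG (YY1) and TCAAGGTCA (ERRA). The NRF1 letters were in 18 of 68 windows (26.5%) against 5.8% of all 33469 gene windows. The ETS letters were in 19 (27.9% against 8.75%), the YY1 letters in 10 (14.7% against 1.73%) and the ERRA letters in 2 (2.94% against 0.433%). CCGGAAG ends with the letters that open AAGATGGCG, but in 0 of the 68 windows did matches of both overlap. The median GC content was 56.1% in these windows and 51.7% in all, and the shares were not matched for it. By complex from I to V, NRF1 letters were in 9 of 31, 1 of 4, 1 of 6, 1 of 12 and 6 of 15 windows. ETS letters were in 6, 2, 3, 4 and 4 of the same windows.

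The windows shown belong to the genes the diet results turn on. Cox8a, Atp5a1, Sdhb and Ndufs3 rose with the diet, and Cox7c and Ndufb4 stood furthest apart in IUGR-RC (below). Capitals mark a match on either strand: 2 ETS matches in Cox8a (chr1:213833574-213833873, minus strand), 1 in Sdhb (chr5:158547684-158547983, plus strand) and 1 in Atp5a1 (Atp5f1a in RefSeq, chr18:73567287-73567586, plus strand), and 2 NRF1 matches in Ndufb4 (chr11:76568928-76569227, plus strand). Ndufs3 (chr3:97339605-97339904, minus strand) and Cox7c (chr2:18579121-18579420, minus strand) hold none of the 4 motifs in these windows. A match is a description of the letters, and binding was not measured.
Cox8a: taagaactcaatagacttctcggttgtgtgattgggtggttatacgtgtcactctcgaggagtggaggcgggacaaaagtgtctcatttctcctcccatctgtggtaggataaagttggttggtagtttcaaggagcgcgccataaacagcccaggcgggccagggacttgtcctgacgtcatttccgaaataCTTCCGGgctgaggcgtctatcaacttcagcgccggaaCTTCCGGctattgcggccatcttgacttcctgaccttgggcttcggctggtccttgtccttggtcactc
Sdhb: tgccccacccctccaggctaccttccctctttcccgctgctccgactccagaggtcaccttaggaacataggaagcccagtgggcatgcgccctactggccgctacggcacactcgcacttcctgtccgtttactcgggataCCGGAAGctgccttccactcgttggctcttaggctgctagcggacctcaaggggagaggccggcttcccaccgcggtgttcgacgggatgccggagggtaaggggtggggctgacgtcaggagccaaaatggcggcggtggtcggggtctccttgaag
Atp5a1: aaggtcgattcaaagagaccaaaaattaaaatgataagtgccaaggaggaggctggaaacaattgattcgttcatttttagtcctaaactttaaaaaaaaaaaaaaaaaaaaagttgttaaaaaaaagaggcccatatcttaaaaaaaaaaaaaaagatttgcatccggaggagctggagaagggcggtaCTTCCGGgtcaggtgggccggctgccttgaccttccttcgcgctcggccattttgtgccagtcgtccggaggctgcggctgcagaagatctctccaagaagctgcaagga
Ndufs3: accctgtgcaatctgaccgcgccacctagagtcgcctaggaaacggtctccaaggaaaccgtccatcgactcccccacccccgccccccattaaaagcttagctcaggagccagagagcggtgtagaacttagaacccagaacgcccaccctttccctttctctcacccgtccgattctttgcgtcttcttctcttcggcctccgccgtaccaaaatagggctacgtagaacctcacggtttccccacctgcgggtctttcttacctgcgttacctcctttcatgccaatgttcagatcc
Ndufb4: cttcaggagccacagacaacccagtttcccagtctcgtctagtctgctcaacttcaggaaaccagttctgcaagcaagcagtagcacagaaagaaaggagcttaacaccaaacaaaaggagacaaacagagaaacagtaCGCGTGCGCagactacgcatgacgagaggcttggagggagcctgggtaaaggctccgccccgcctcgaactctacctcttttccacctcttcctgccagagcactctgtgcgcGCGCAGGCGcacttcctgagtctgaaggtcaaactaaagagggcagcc
Cox7c: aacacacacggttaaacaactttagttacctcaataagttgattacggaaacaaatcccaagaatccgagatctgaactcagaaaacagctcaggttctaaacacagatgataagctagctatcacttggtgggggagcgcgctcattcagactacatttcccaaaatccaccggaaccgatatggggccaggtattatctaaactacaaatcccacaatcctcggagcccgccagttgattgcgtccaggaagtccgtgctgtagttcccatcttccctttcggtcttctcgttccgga

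Within single strata of sex and time few subunit genes passed. Beside each count stands the number with p under 0.05 before adjustment. Here and further on, the percentages of all genes are shares called by edgeR at the adjusted threshold. They belong to the called counts only, and no share of all genes is given for the unadjusted numbers. HFhf against CON gave 0 higher genes in ZT4 males (1 unadjusted, median -0.017; 0.290% of all genes), 1 in ZT16 males (20 unadjusted, median 0.242; 0.588%), 0 in ZT4 females (5 unadjusted, median 0.149; 0.570%) and 0 in ZT16 females (9 unadjusted, median 0.140; 0.588%). DESeq2 gave 0, 4, 0 and 2 in these strata and limma-voom 0, 8, 1 and 1. The gene called in males at ZT16 was Sdha: the CON libraries held 208.3, 226.7 and 230.4 CPM and the HFhf libraries 292.2, 278.0, 287.3 and 304.2, without overlap (0.39, SE 0.0873, edgeR adjusted p = 0.0174). The count of 1 was 0 to 2 when single libraries were left out.

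IUGR-HFhf against CON gave 0 in ZT4 males (2 unadjusted, median 0.048; 0.217% of all genes), 6 in ZT16 males (39 unadjusted, median 0.301; 1.84%), 0 in ZT4 females (5 unadjusted, median 0.106; 0.317%) and 3 in ZT16 females (28 unadjusted, median 0.249; 1.16%). DESeq2 gave 0, 9, 0 and 7, and limma-voom 0, 27, 0 and 14, and the shares of all genes in these fits are not given. The 6 of males at ZT16 were Cox8a, Sdha, Sdhd, Atp5o, Ndufb5 and Ndufb6, and the 3 of females at ZT16 were Cox8a, Atp5a1 and Atp5g3. Cox8a in males at ZT16 stood at 50.07, 50.92 and 57.58 CPM in CON and 78.24, 94.88, 84.4 and 81.96 in IUGR-HFhf, without overlap (0.68, SE 0.144, edgeR adjusted p = 0.00413). In females at ZT16 it stood at 51.64, 49.01 and 58.39 CPM in CON and 74.65, 76.02, 78.51 and 81.58 in IUGR-HFhf, again apart (0.55, SE 0.142, edgeR adjusted p = 0.0244). Single libraries decided these counts: 6 became 1 without male ZT16 CON replicate 1, 2 without male ZT16 CON replicate 2, and 3 without male ZT16 IUGR-HFhf replicate 2 or 4. The 3 became 0 without female ZT16 CON replicate 2 or 3, and 1 without female ZT16 IUGR-HFhf replicate 2 or 4.

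The tests of the difference between strata did not pass for the diet with fructose. The IUGR-HFhf effect was larger at ZT16 than at ZT4 in 0 of 72 genes in edgeR, with 22 at an unadjusted p under 0.05, a median difference of 0.234 and 0.308% of all genes higher; DESeq2 called 1 gene, limma-voom 8, and edgeR without the IUGR-RC libraries 3. For HFhf the same test gave 0 (3 unadjusted, DESeq2 1, limma-voom 1, median 0.125; 0.398% of all genes), and that of IUGR-HFhf over HFhf gave 0 (2 unadjusted, DESeq2 0, limma-voom 0, median 0.113; 0.00% of all genes). Between the sexes the HFhf effect gave 0 (1 unadjusted, DESeq2 0, limma-voom 0; 0.0362% of all genes) and the IUGR-HFhf effect 0 (1 unadjusted, DESeq2 0, limma-voom 0; 0.154%).

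The comparison of the times asks how the subunit genes differ between the light and the dark phase within a diet. The 4 diets share no library. In CON 2 of 72 genes were higher at ZT16 and 1 was lower, against 6.25% and 6.91% of all genes, and the median difference was 0.086. In HFhf 12 were higher and 0 lower (5.44% and 4.77% of all genes; median 0.228). In IUGR-HFhf 41 were higher and 0 lower (13.4% and 12.3% of all genes; median 0.320, with -0.009 over all genes). In IUGR-RC 7 were higher and 6 lower (9.40% and 10.6% of all genes; median -0.038). The 41 of IUGR-HFhf were 18 of 33 in complex I, 2 of 4 in complex II, 6 of 9 in complex III, 5 of 10 in complex IV and 10 of 16 in complex V. They numbered 38 to 43 when single libraries were left out and 41 in DESeq2. Pancreas markers (8 genes) summed to a median of 4.7 CPM in IUGR-HFhf. They reached 1602 in its female ZT4 replicate 3 and 502 in replicate 2 of that group, with each of the 8 genes at 17.8 or more. The highest sums in CON, HFhf and IUGR-RC were 212, 16.5 and 398, nearly all from Cpa1 (209, 15.2 and 396). Without replicate 3 the 41 became 39, and without replicate 2 they became 38. The 21 genes higher in IUGR-HFhf than in CON became 19 and 27.

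Ndufa8, an accessory subunit of complex I that lies on its intermembrane side, was higher at ZT16 in CON, HFhf and IUGR-HFhf. In CON it stood at 27.67, 37.07 and 42.11 CPM at ZT4 (lowest, median, highest of 6 libraries) and 37.23, 46.46 and 55.35 at ZT16 (n = 6; 0.33, SE 0.0873, edgeR adjusted p = 0.00639). In HFhf it stood at 27.86, 41.66 and 50.09 CPM at ZT4 and 38.46, 51.09 and 69.56 at ZT16 (0.36, SE 0.0823, adjusted p = 0.00277). In IUGR-HFhf it stood at 27.16, 43.32 and 49.93 CPM at ZT4 and 45.39, 55.27 and 65.43 at ZT16 (0.50, SE 0.0791, adjusted p = 9.53e-06). Over both sexes the ranges of the times overlap. Within each sex the ZT16 libraries of each of these 3 diets lay above those at ZT4, from 27.67, 32.3 and 36.18 to 37.23, 38.73 and 43.36 in CON males. These 3 calls held under every setting run. Ndufa8 and Sdhc were the 2 genes higher at ZT16 in 3 diets, Sdhc in HFhf, IUGR-HFhf and IUGR-RC, and 26 of the 72 were higher in none.

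Other genes of the dark phase in CON were few. Uqcr10, a small subunit of complex III, was higher at ZT16 (median 28.79 to 39.98 CPM; 0.39, SE 0.119, edgeR adjusted p = 0.0239). Sdha was lower, from 225.8, 259.6 and 288.4 CPM at ZT4 to 208.3, 216.8 and 230.4 at ZT16 (-0.24, SE 0.0654, edgeR adjusted p = 0.00959), and lost the call with total counts.

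Among the called genes of IUGR-HFhf, Cox7b and Cox7c changed furthest; Ndufa10l1 had a larger difference that did not pass (0.97, adjusted p = 0.124). Cox7b of complex IV stood at 43.26, 51.88 and 89.8 CPM at ZT4 (n = 7) and 78.77, 92.66 and 135.6 at ZT16 (n = 8; 0.80, SE 0.151, edgeR adjusted p = 0.000129). Cox7c, of the same complex, stood at 60.12, 69.13 and 99.1 CPM at ZT4 and 101.2, 115.7 and 149.0 at ZT16, without overlap (0.74, SE 0.141, adjusted p = 0.000153). Atp5j, the coupling factor 6 of the ATP synthase stalk, went from a median of 59.45 to 93.41 CPM (0.57, SE 0.113, adjusted p = 0.000225), and Uqcr10 from 28.85 to 46.29 (0.57, SE 0.108, adjusted p = 0.000142). Sdhd, a membrane anchor of complex II, stood at 86.43, 101.9 and 123.5 CPM at ZT4 and 122.0, 137.6 and 149.0 at ZT16 (0.45, SE 0.0885, adjusted p = 0.000194).

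In HFhf Cox7c, Atp5i and Atp5l had the largest differences among the 12, Atp5l at 0.45. Cox7c stood at 46.78, 65.18 and 94.27 CPM at ZT4 (n = 6) and 86.05, 97.94 and 131.8 at ZT16 (n = 8; 0.63, SE 0.147, edgeR adjusted p = 0.00299). Atp5i, the e subunit of the membrane part of ATP synthase, went from a median of 42.67 to 61.24 CPM (0.53, SE 0.114, edgeR adjusted p = 0.00138). Sdhc, the other membrane anchor of complex II, went from 76.99 to 103.1 CPM (0.31, SE 0.0914, adjusted p = 0.0228), and Uqcrfs1, the Rieske iron-sulfur protein of complex III, passed narrowly (0.22, SE 0.0749, adjusted p = 0.0456). The HFhf count of 12 was the least stable: it was 3 without male ZT4 HFhf replicate 1, 4 without replicate 3 of that group or female ZT4 HFhf replicate 3, 5 without female ZT4 HFhf replicate 1, 6 without male ZT16 HFhf replicate 2, and 7 without male ZT16 HFhf replicate 4 or female ZT16 HFhf replicate 1. It was 25 without male ZT4 HFhf replicate 2, 19 without the IUGR-RC libraries and 29 in limma-voom. CON, with fewer libraries than the other diets, had a larger standard error (median 0.106, against 0.0955 in IUGR-HFhf).

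In IUGR-RC the called genes lay on both sides. Their numbers, 7 higher and 6 lower of 72, are near the shares of all genes (9.40% and 10.6%). The genes are named as a description. Ndufa5, an accessory subunit of the matrix arm of complex I, stood at 44.54, 82.77 and 96.03 CPM at ZT4 (n = 7) and 37.2, 47.14 and 97.06 at ZT16 (n = 8; -0.51, SE 0.127, edgeR adjusted p = 0.00346). Cox7b went from a median of 178.1 to 104.0 CPM (-0.49, SE 0.146, adjusted p = 0.0132) and Cox7c from 274.3 to 171.2 (-0.47, SE 0.137, adjusted p = 0.011), with overlapping ranges. Ndufb3 (-0.42, adjusted p = 0.0309), Ndufc2 (-0.35, adjusted p = 0.0385) and Atp5j2 (-0.28, adjusted p = 0.0404) were the others lower. Higher were Atp5d (0.32, SE 0.0852, adjusted p = 0.00554), Uqcrc1 (0.30, SE 0.0778, adjusted p = 0.00518), Ndufv3 (0.30, adjusted p = 0.00815), Sdhc (0.24, adjusted p = 0.0413), Atp5b, Ndufv1 and Cyc1. These calls rest on few libraries. The 7 higher became 4 to 10 with single libraries left out and 0 without the 4 libraries set apart, and the 6 lower became 1 without female ZT4 IUGR-RC replicate 3 and 17 without replicate 2 of that group. With the IUGR-RC libraries fitted alone, 1 was higher and 0 lower.

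**Figure D3:**
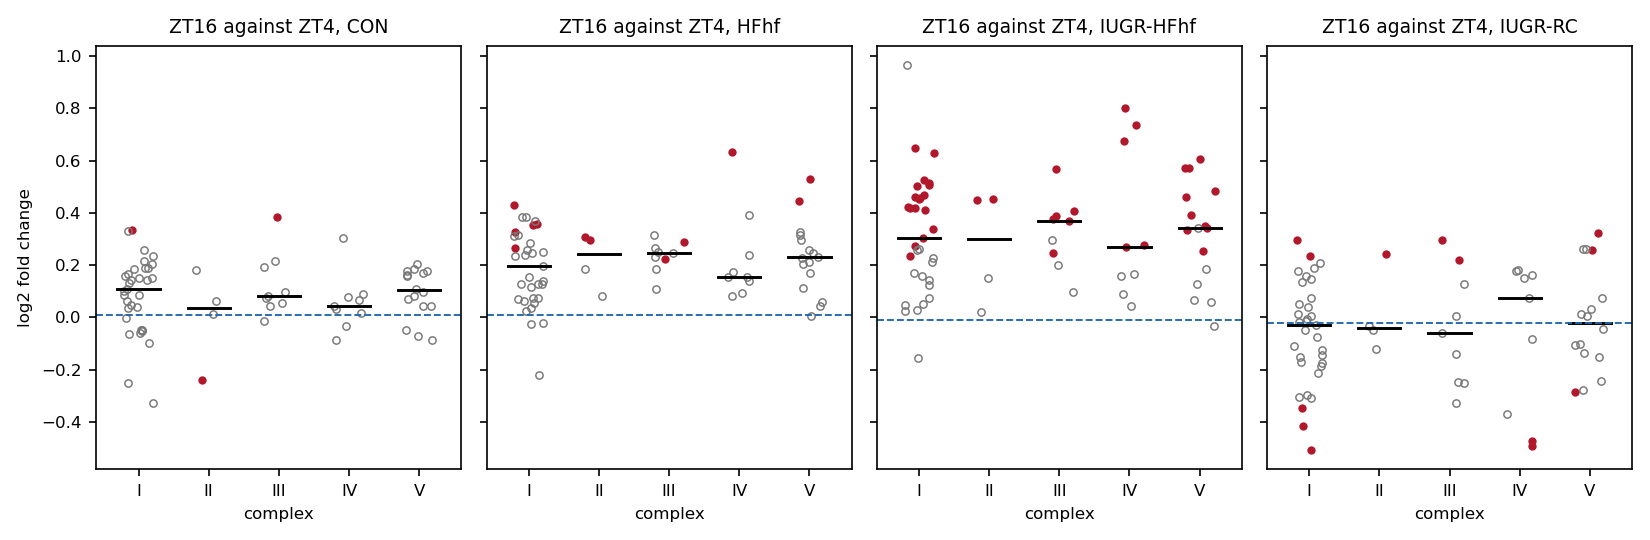
Log2 difference between ZT16 and ZT4 of each tested subunit gene except Cox8b, by complex, in each of the 4 diets. Filled red points have an edgeR adjusted p under 0.05, open grey points do not, black bars are the median of a complex, and the blue dashed line is the median of all genes tested. Higher genes number 2, 12, 41 and 7 of 72 in CON, HFhf, IUGR-HFhf and IUGR-RC, against 6.25%, 5.44%, 13.4% and 9.40% of all genes. Lower genes number 1, 0, 0 and 6, against 6.91%, 4.77%, 12.3% and 10.6%. Both counts of IUGR-RC are near the shares of all genes.

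Since no library is shared, the time differences of the 4 diets can be set side by side across the 71 tested genes without Cox8b, as a description. Pearson's r was 0.693 between CON and HFhf (0.499 over all 11047 genes), 0.642 between HFhf and IUGR-HFhf (0.462) and 0.327 between CON and IUGR-HFhf (0.437). Between IUGR-RC and CON, HFhf and IUGR-HFhf it was -0.15, -0.452 and -0.583, where all genes gave 0.344, 0.0662 and 0.307. The genes share libraries and are not independent.

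Males and females differed in few subunit genes in the first 3 diets. Of 72 genes 1 was higher and 3 lower in males in CON (7.85% and 8.36% of all genes), 1 and 6 in HFhf (10.0% and 10.2%) and 2 and 7 in IUGR-HFhf (7.84% and 7.30%). Ndufa8 was lower in males in all 3. In CON males it stood at 27.67, 36.71 and 43.36 CPM (n = 6) and in females at 37.95, 45.84 and 55.35 (n = 6; -0.36, SE 0.0873, edgeR adjusted p = 0.0021). In HFhf males stood at 27.86, 38.46 and 45.6 CPM (n = 7) and females at 47.9, 56.58 and 69.56 (n = 7), without overlap (-0.60, SE 0.082, adjusted p = 1.52e-07). In IUGR-HFhf the values were 27.16, 45.39 and 52.08 CPM in males (n = 7) and 43.32, 54.2 and 65.43 in females (n = 8; -0.43, SE 0.079, adjusted p = 5.18e-05). The 3 calls held under every setting run.

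Cox6c, a small subunit of complex IV, was also lower in males in the 3 diets. CON males stood at 74.86, 96.37 and 102.0 CPM and CON females at 122.1, 127.8 and 149.8, without overlap (-0.51, SE 0.164, edgeR adjusted p = 0.0262), a call lost in 5 of 22 settings or left-out libraries. In HFhf the difference was -0.43 (adjusted p = 0.0388), lost in 8 of 24 (adjusted p up to 0.171), and in IUGR-HFhf -0.57 (SE 0.149, adjusted p = 0.00437), held under every setting run. Atp5b, the catalytic β subunit of ATP synthase, was lower as well (medians in males and females of 937.7 and 1061.0 CPM in CON, 1070.0 and 1251.0 in HFhf, and 1085.0 and 1231.0 in IUGR-HFhf). Its differences were -0.24 (adjusted p = 0.037, lost in 9 of 22), -0.23 and -0.25 (adjusted p = 0.015, lost in 5 of 25). The others lower in males were Ndufb8, Atp5h (-0.30, adjusted p = 0.0179) and Cox7a2l (-0.28, adjusted p = 0.032) in HFhf, and Ndufa5, Ndufa6, Ndufv2 and Uqcrh (-0.35, adjusted p = 0.0199) in IUGR-HFhf. Higher in males were Ndufb10 in CON (0.26, adjusted p = 0.0268), Sdha in HFhf (0.19, adjusted p = 0.0195), and Ndufb6 (0.31, adjusted p = 0.023) and Uqcrfs1 (0.21, adjusted p = 0.0345) in IUGR-HFhf.

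These sex counts depend on scaling. With total counts as library size the median of the 72 genes turned from -0.043, -0.063 and -0.042 to 0.032, 0.112 and 0.064 in CON, HFhf and IUGR-HFhf, and the genes higher and lower in HFhf became 11 and 1. Hepatocyte markers summed to medians of 166498 CPM in males and 221976 in females of CON, and 199766 and 285576 in HFhf. The sum is mostly Alb, at 93792 to 108505 CPM in males and 133214 to 184414 in females of CON. Ttr, Serpina1 and Apoc3 were lower in those females than in the males, Ttr at 3435 to 4845 against 5290 to 7554. Pancreas markers summed to 61.1 to 212 CPM in females and 1.29 to 5.98 in males of CON. Nearly all of the female sum was Cpa1 (59.9 to 209 CPM), and each other gene of the list was at most 2.44 there. The part of these markers and that of the hepatocyte markers were not tested. In IUGR-HFhf 0 were higher in males and 9 lower without female ZT4 replicate 2. The HFhf count of 6 lower became 1 without male ZT4 HFhf replicate 1 or female ZT4 HFhf replicate 2, and the CON count of 3 became 1 without male ZT4 CON replicate 3 or female ZT16 CON replicate 3.

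In IUGR-RC 23 genes were higher in males and 1 lower (14.9% and 15.5% of all genes). Sdha stood at 294.8, 333.0 and 349.2 CPM in males (n = 8) and 249.3, 261.5 and 288.5 in females (n = 7), without overlap (0.29, SE 0.059, edgeR adjusted p = 0.000107). Ndufs4, of the matrix arm of complex I, stood at medians of 63.44 and 45.69 CPM (0.38, SE 0.0981, adjusted p = 0.00251), Atp5j at 139.0 and 88.8 (0.42, SE 0.112, adjusted p = 0.00304) and Uqcrc2, a core protein of complex III, at 322.6 and 244.1 (0.37, SE 0.0979, adjusted p = 0.00267). The 1 lower was Cox8b, whose value came from single libraries (below). Pancreas markers summed to 154 to 398 CPM in these females and 3.44 to 12.2 in the males. In the females Cpa1 alone gave 151 to 396 CPM, and the part of these markers in the result was not tested. The 23 became 9 without female ZT4 IUGR-RC replicate 2, the library with the muscle markers, 7 without the 4 libraries set apart, and 5 with the IUGR-RC libraries fitted alone.

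The largest differences were those of the IUGR-RC libraries against CON, where the group and the batch cannot be told apart. Of 72 genes 63 were higher and 3 lower, against 33% and 29.9% of all genes, and the median was 0.632, against 0.027 over all genes. All tested genes of complexes II (4) and III (9) were higher, with 29 of 33 in complex I, 6 of 10 in complex IV and 15 of 16 in complex V. The 6 not called were Ndufs7, Ndufb10, Ndufa10l1, Atp5d, Cox6a1 and Cox8b. With total counts, which moved the median of all genes to -0.227, the median of the 72 was 0.371 and 7 were lower. By stratum 59 genes were higher in ZT4 males, 53 in ZT16 males, 49 in ZT4 females and 37 in ZT16 females, against 24.5%, 19.5%, 20.7% and 12.0% of all genes.

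Among the called genes Cox7c, Ndufb3 and Atp5l had the largest fold changes. Cox7c stood at 68.92, 79.20 and 110.1 CPM in CON and 128.8, 193.0 and 297.6 in IUGR-RC (1.41, SE 0.106, edgeR adjusted p = 1.24e-15). Ndufb3, of the membrane arm of complex I, stood at 3.879, 5.681 and 7.780 CPM in CON and 8.438, 14.46 and 23.17 in IUGR-RC (1.39, SE 0.115, adjusted p = 1.59e-14). Atp5l, the g subunit of the membrane part of ATP synthase, stood at 59.48, 74.45 and 91.75 CPM in CON and 98.15, 170.2 and 245.5 in IUGR-RC (1.19, SE 0.1, adjusted p = 3.32e-14). Ndufa8 had the smallest p: it stood at 27.67, 40.11 and 55.35 CPM in CON and 58.36, 77.27 and 96.78 in IUGR-RC (0.91, SE 0.059, adjusted p = 5.73e-18). In Cox7c, Ndufb3, Atp5l and Ndufa8 all 15 IUGR-RC libraries lay above all 12 CON libraries. For libraries outside the range of another group, no share of all genes is given here or elsewhere in the text. Such counts describe single genes and were not set against all genes. All IUGR-RC libraries also lay above CON for Atp5h, the d subunit of the ATP synthase stalk (medians 79.72 and 161.8 CPM; 0.98, SE 0.0682, adjusted p = 6.19e-17), Sdhc (72.26 and 130.2 CPM; 0.80, SE 0.0659, adjusted p = 1.59e-14) and Uqcrfs1 (112.7 and 177.5 CPM; 0.61, SE 0.0541, adjusted p = 1.08e-13).

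Against this direction 3 genes fell. Ndufb4, a membrane arm subunit of complex I, stood at 9.249, 14.76 and 22.14 CPM in CON and 4.130, 7.965 and 9.086 in IUGR-RC, so that every IUGR-RC library lay below the CON range (-1.06, SE 0.107, edgeR adjusted p = 6.81e-12). Cox5a, a subunit of complex IV that faces the matrix, stood at 33.49, 45.80 and 60.11 CPM in CON and 26.14, 33.67 and 44.12 in IUGR-RC, with 6 of 15 below the range (-0.42, SE 0.0915, adjusted p = 0.000107). Cox8a stood at 28.28, 43.09 and 59.21 CPM with 8 of 15 below the lowest CON library, the opposite side from HFhf and IUGR-HFhf (-0.30, SE 0.072, adjusted p = 0.000322). In single strata Ndufb4 passed in 3 of 4, not in males at ZT4 (-0.38, adjusted p = 0.14). These calls, and those of Cox7c, Ndufb3, Ndufa8, Atp5h, Sdhc and Uqcrfs1 above, held under every setting run. Atp5l was not among the genes checked in this way.

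The IUGR-RC libraries also differed from CON in summed cell type markers, though not in each gene of a list. The hepatocyte markers, mostly Alb, summed to 177761 to 460887 CPM (median 259757), against 158622 to 240688 (186468) in CON. The 9 macrophage markers summed to 596 to 1192 CPM (median 847), against 455 to 713 (557) in CON. Clec4f (180 to 432 against 99.3 to 212), C1qa, C1qb, C1qc, Vsig4 and Marco lay higher, some with overlap. Cd68 (22.1 to 46.3 against 23.9 to 41.2), Cd163 (34.5 to 89.9 against 56.7 to 75.5) and Csf1r (54.7 to 106 against 65.9 to 84.2) lay on both sides of the CON range. For 3 erythroid markers the median sum was 229 against 96.1, mostly through Hbb (90 to 386 against 30.7 to 119). Alas2 (4.53 to 13.8 against 4.15 to 13.9) and Slc4a1 (3.17 to 33.6 against 8.68 to 24.1) showed no such shift. Of 6 endothelial and stellate markers the median sum was 325 against 418. Stab2 (37.9 to 64.1 against 76.9 to 119) and Reln (55.1 to 77.9 against 113 to 168) were lower. Lyve1 (100 to 144 against 81.5 to 115) and Pecam1 (19.1 to 30.6 against 16.6 to 23.9) lay higher, with overlap. None of these lists was at 0 in any diet, and their part in the result was not tested.

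**Figure D4:**
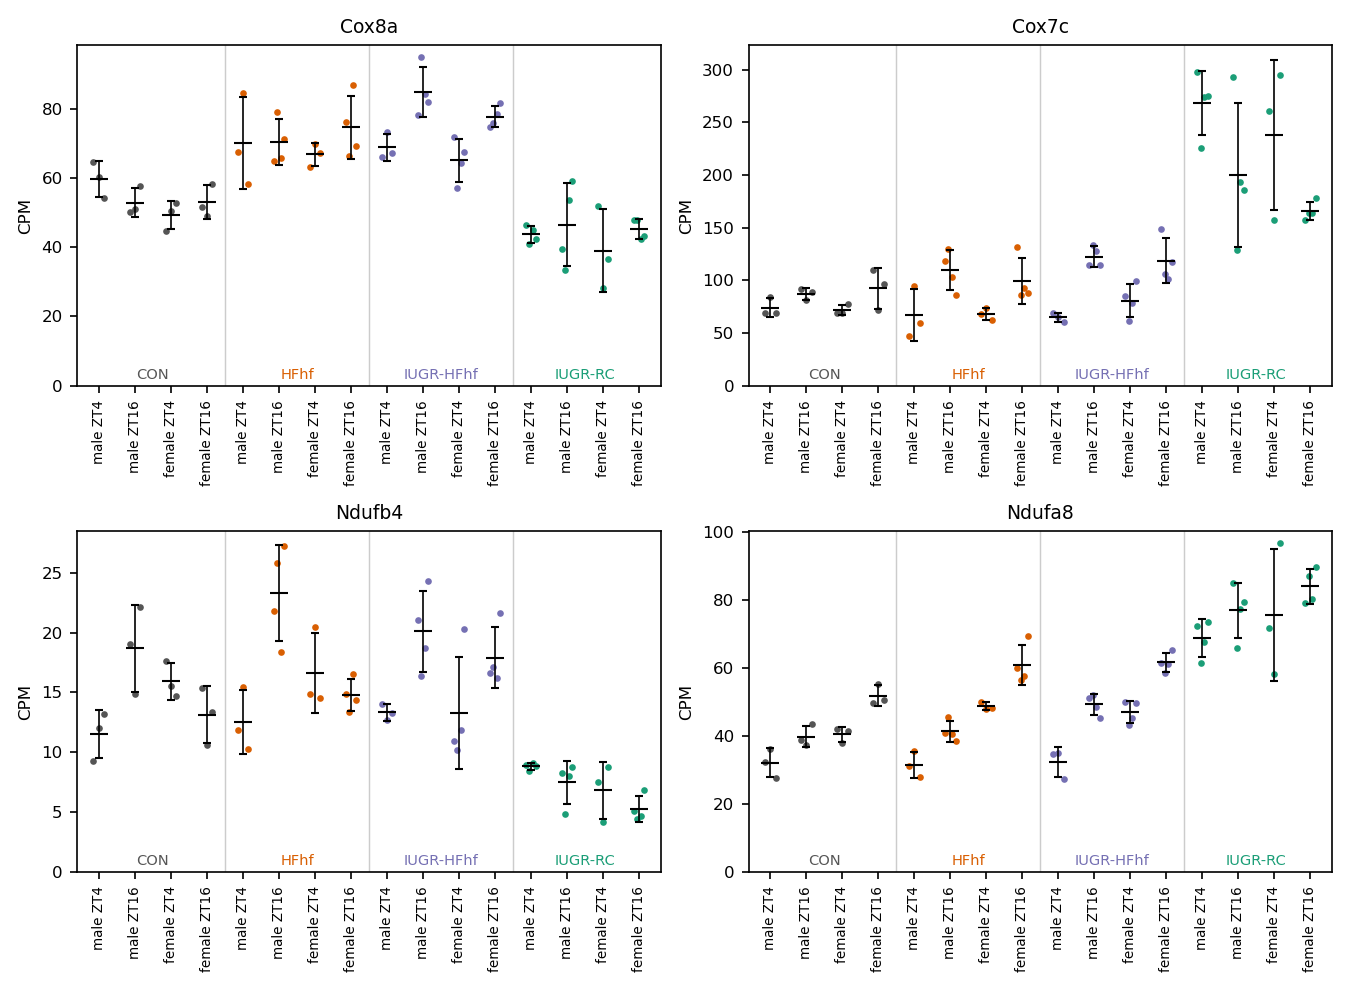
CPM of Cox8a, Cox7c, Ndufb4 and Ndufa8 in each of the 56 libraries by group, with mean ± SD, on axes that start at 0. Cox8a is high in HFhf and IUGR-HFhf and low in IUGR-RC, Ndufb4 is at most 9.086 CPM in IUGR-RC, and Ndufa8 is higher in females and at ZT16 in CON, HFhf and IUGR-HFhf.

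Tests of how the IUGR-RC difference changed with time or sex were added after the main results were seen. At ZT16 it was smaller than at ZT4 in 2 genes and larger in 0 (1.38% of all genes smaller). Cox7c in IUGR-RC males stood at 297.6, 225.6, 274.3 and 275.5 CPM at ZT4 and 293.4, 128.8, 193.0 and 185.4 at ZT16. The females stood at 261.3, 157.7 and 295.3 CPM at ZT4 and 156.9, 164.4, 163.5 and 177.9 at ZT16. Every one of these was above CON, which stood at 68.92 to 84.25 CPM at ZT4 and 71.69 to 110.1 at ZT16. The difference was -0.77 (SE 0.206, edgeR adjusted p = 0.0334), and that of Ndufa5 -0.67 (SE 0.193, adjusted p = 0.0439). Neither was stable: the call on Cox7c was lost in 15 of 36 settings or left-out libraries (adjusted p from 0.000734 to 0.108) and that on Ndufa5 in 28 of 36 (0.000694 to 0.152). Between the sexes 0 genes passed (22 unadjusted, DESeq2 0, limma-voom 3; 0.00% of all genes), and 6 passed without female ZT4 IUGR-RC replicate 3.

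Some subunits of complex IV exist as a form of most tissues and a form of heart and skeletal muscle. Of the muscle forms, Cox6a2 and Cox8b were near 0 in most libraries. Cox6a2 reached 30.53 CPM in female ZT4 IUGR-RC replicate 2 and 2.863 in male ZT16 HFhf replicate 3, the 2 libraries with the most muscle marker RNA (5289 and 586 CPM). Cox8b reached 24.42 and 1.073 CPM in the same libraries, and 4.412 in female ZT16 IUGR-RC replicate 2, where muscle markers were among the low values. Cox8b had 406 reads in all, 272 of them in 1 library, so its fold changes (-5.69 for males against females in IUGR-RC, SE 0.987, edgeR adjusted p = 1.91e-05) describe those libraries. The form of most tissues, Cox8a, was 28.28 CPM in the library with the most muscle RNA, the lowest of the 56. Cox4i2, the lung form of subunit IV, and Cox6b2, the testis form of subunit VIb, had 107 and 104 reads in all. Low counts were not limited to these, as Cox7a2, also from the pairs of forms, had 204 reads over all libraries. Cox4i1 stood at medians of 230.6, 259.4, 258.4 and 317.3 CPM in CON, HFhf, IUGR-HFhf and IUGR-RC.

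**Figure D5:**
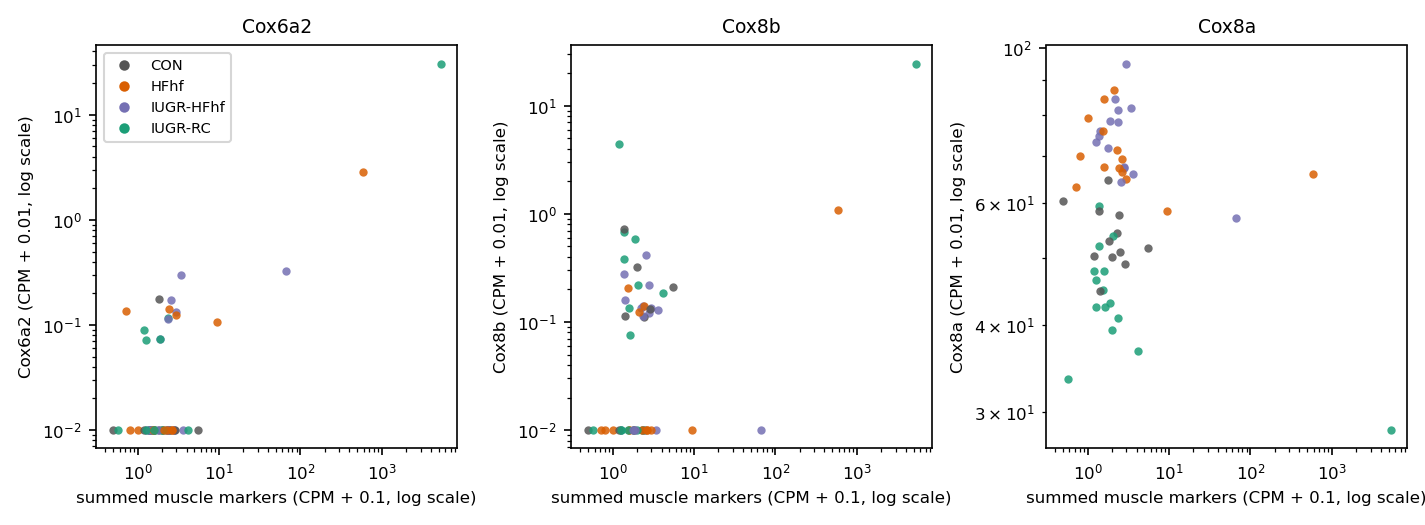
CPM of Cox6a2, Cox8b and Cox8a in each library against the summed CPM of 12 skeletal muscle markers, on log axes. Cox6a2 and Cox8b are highest, at 30.53 and 24.42 CPM, in the library with the highest muscle sum, and Cox8a is lowest there, at 28.28 CPM.

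The subunit genes varied together within groups. After the group mean was removed from log2 CPM in the 56 libraries, the median Pearson's r over 2485 gene pairs was 0.417, and 90.4% of pairs were positive. Over all pairs of the 11047 tested genes the median was -0.00156, and 49.7% were positive. Genes of the same complex did not stand out (median 0.411, against 0.421 for genes of different complexes), and a first component held 38.9% of the variance. Atp5c1 (median r with the other genes 0.592) and Atp5o (0.585) were nearest to the rest. Ndufa10l1 (-0.0244), Atp5s (-0.0105) and Cox5a (0.0663) were furthest. The points share library depth and scaling.

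Other genes of mitochondrial energy metabolism, taken from lists, gave these counts. Of 12 tested TCA cycle genes 5 rose in HFhf and 6 in IUGR-HFhf, 0 fell, and the medians were 0.145 and 0.143. Of all tested genes 4.31% and 5.80% rose, and 3.63% and 4.68% fell. Idh3g, a subunit of NAD-dependent isocitrate dehydrogenase, rose by a log2 fold change of 0.28 in HFhf (edgeR adjusted p = 0.00145) and 0.28 in IUGR-HFhf (adjusted p = 0.00125). Of 35 assembly factors 1 and 2 rose, near the share of all genes, and 0 fell: Cox15, which makes heme A for complex IV, in both (0.25, adjusted p = 0.0379, and 0.34, adjusted p = 0.0021), and Tmem70, an assembly factor of ATP synthase, in IUGR-HFhf (0.22, adjusted p = 0.0431). At ZT16 against ZT4, 5, 8, 19 and 3 assembly factors and 2, 6, 7 and 4 TCA cycle genes were higher in CON, HFhf, IUGR-HFhf and IUGR-RC. Of all genes 6.25%, 5.44%, 13.4% and 9.40% were higher, so the 3 assembly factors of IUGR-RC are near the share of all genes. No assembly factor was lower, and of the TCA cycle genes 1 was lower, in IUGR-RC. Of all genes 6.91%, 4.77%, 12.3% and 10.6% were lower in the 4 diets, so that 1 gene is near the share in IUGR-RC.

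Of 16 regulators of mitochondrial biogenesis 0 passed in HFhf and 1 in IUGR-HFhf, about the share of all genes that rose (5.80%). Ppargc1a, the coactivator PGC-1α, had log2 fold changes of 0.53 in HFhf (edgeR adjusted p = 0.0624) and 0.59 in IUGR-HFhf (adjusted p = 0.0241). Of all genes 4.31% rose and 3.63% fell in HFhf, and 5.80% and 4.68% in IUGR-HFhf. In the next 2 lists, of 7 and 8 genes, a count of 1 is too small to set against these shares. Of 7 genes that bring electrons to ubiquinone or cytochrome oxidase 1 rose and 1 fell in HFhf, and 0 and 1 in IUGR-HFhf. Prodh, proline dehydrogenase, fell in both (-0.52, adjusted p = 0.00497, in HFhf, and -0.41 in IUGR-HFhf), and Etfdh, which passes electrons from fatty acid oxidation to ubiquinone, rose in HFhf (0.25, adjusted p = 0.0311). Of 8 carrier and uncoupling genes 1, the phosphate carrier Slc25a3, rose in HFhf (0.21), and 1, Atpif1, the inhibitor of ATP synthase, fell in IUGR-HFhf (-0.35, adjusted p = 0.0166). In IUGR-RC against CON the counts higher and lower were 28 and 1 of 35 assembly factors, 9 and 1 of 12 TCA cycle genes, 5 and 2 of 7 electron carriers, 6 and 7 of 16 regulators and 6 and 0 of 8 carriers. Of all genes 33% were higher and 29.9% lower. The 6 regulators higher are near the first share, and the 2 electron carriers lower are near the second.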

How the data were processed

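The 56 libraries were grouped by the labels for diet, sex and time. Per the labels' protocols, liver RNA was depleted of ribosomal RNA before strand-specific libraries were made and run on an Illumina sequencer, while the molecule label reads polyA RNA. According to the submitters' processing notes, reads were handled with STAR and with featureCounts of the Subread package on build rn6, beside FastQC and DESeq2, with no versions or settings. The handling of reads that map to several places is not given in the sources used here, and many subunit genes have processed pseudogenes, so low or 0 counts of single genes can depend on it. The authors deposited raw, unnormalized read counts for each gene. Their tables of comparisons were not used.

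All libraries entered 1 fit in edgeR 4.0.16 (R 4.3.3): genes kept by filterByExpr (11047 of 17337; 2487 had no read), TMM scaling, 1 mean per group, robust quasi-likelihood F tests, 40 residual degrees of freedom, two-sided, with Benjamini-Hochberg adjustment over all tested genes and a threshold of 0.05. Adjusted p-values rest on a spread shared by all groups. CPM uses TMM-scaled library sizes, is not corrected for gene length, and is not compared between genes. Fold changes are log2, and SE is their ratio to the root of F. Alternatives used limma 3.58.1 and DESeq2 1.42.0. The procedure was tested on simulated data. Counts set the precision: Ndufb3, a gene of low level among those named, had 19 to 363 reads per library.

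The genes, lists and tests were chosen with earlier results of these data known, so no p-value is given for a list. Genes named are, per comparison, the called gene of each complex with the smallest p in each direction, called genes against the majority, the 2 largest and 2 smallest fold changes at a mean of at least 1 CPM, isoform genes, and genes of called differences between effects; others named complete a count. A gene that the rule would name from the other lists is not reported here. The 4 libraries set apart were doubted in an earlier report. Leaving Cox8b out of figures and correlations, and the IUGR-RC and IUGR-HFhf over HFhf differences between times or sexes, were chosen after seeing the data. Promoter windows are from RefSeq (GRCr8).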

Additional observations from a re-analysis of the deposited data

Results flagged for a closer look

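In males at ZT16 of IUGR-RC, replicate 2 had a summed level of the 81 genes of 8930 CPM, against 10783, 10815 and 11063 in the other libraries of the group, a gap of 0.869 of the range. In males at ZT4 of IUGR-RC, replicate 2 had a summed level of complex II of 703.4 CPM, against 861.4, 861.8 and 891.2, a gap of 0.841 of the range. Both gaps exceed Dixon's limit of 0.829 for 4 libraries. Of 48 such checks 2 passed the limit, and chance flags about 1 in 20.

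The IUGR-RC difference from CON was smaller at ZT16 than at ZT4 by -0.773 for Cox7c and -0.673 for Ndufa5 (log2, edgeR adjusted p = 0.0334 and 0.0439, interaction contrast). All 7 IUGR-RC libraries at ZT4 and all 8 at ZT16 lay above the CON libraries for Cox7c. The share of all genes that separate in this way is not given.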

How the results depend on the processing

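No paired analysis was possible because the labels number no replicates. Of the fits of counts that answer a comparison, 1042 stayed within 1.5 times and 148 did not. The 1042 include counts of 0 that stayed at 0. Of the fits of named genes, 2290 left the gene called or not called as in the main fit. A call was gained in 17, lost in 262 and reversed in 0. The 2290 include genes not called in the main fit, which had no call to keep, so they do not measure how stable the calls are. The cause of each change below was not tested, except that a stricter threshold calls fewer genes by construction. The shares of all genes called in these other fits are not given, so the counts below were not set against all genes.

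At an adjusted p under 0.01 the genes higher were 5 in HFhf and 8 in IUGR-HFhf. At ZT16 they were 1 in CON, 3 in HFhf and 3 in IUGR-RC with 1 lower. For males the higher and lower were 0 and 1 in CON, 0 and 1 in HFhf, 0 and 2 in IUGR-HFhf, with 12 higher in IUGR-RC, and 0 genes had a smaller IUGR-RC difference at ZT16. With total counts they were 1 in HFhf, 7 in IUGR-HFhf and 7 lower in IUGR-RC. At ZT16 total counts gave 0 lower in CON, 15 higher and 3 lower in IUGR-RC and 0 for the smaller difference. For males total counts gave 3 higher in CON, 11 and 1 in HFhf, and 6 and 2 in IUGR-HFhf.

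Limma-voom with quality weights gave 17 in HFhf, 32 in IUGR-HFhf, 4 and 29 higher at ZT16 in CON and HFhf, 18 lower at ZT16 in IUGR-RC, 4 and 8 for males of CON and 2 higher in males of HFhf. Its differences between effects were 1 (HFhf, time), 8 (IUGR-HFhf, time), 3 (IUGR-RC, sex) and 1 larger and 14 smaller (IUGR-RC, time). DESeq2 gave 2 higher in males of CON, and 1 each for the time differences of HFhf, IUGR-HFhf and IUGR-RC (larger). Without a low-count filter males gave 0 higher in CON and 1 in IUGR-HFhf, and 1 smaller IUGR-RC difference. Without the IUGR-RC libraries 19 were higher at ZT16 in HFhf, and 3 had a larger IUGR-HFhf effect. With only the compared diets fitted, that count was 2 and the smaller IUGR-RC difference 0; males gave 2 and 6 in CON, 0 higher in HFhf, 1 in IUGR-HFhf and 5 in IUGR-RC, and ZT16 gave 1 and 0 in IUGR-RC. Without the 4 libraries set apart ZT16 gave 0 higher in IUGR-RC, males 0 in IUGR-HFhf and 7 in IUGR-RC, and the smaller difference was 1.

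With single libraries left out, HFhf gave 7 to 13. At ZT16 the higher were 1 to 4 in CON, 3 to 25 in HFhf and 4 to 10 in IUGR-RC, with 1 to 17 lower. For males higher and lower were 0 to 2 and 1 to 4 in CON, 0 to 2 and 1 to 8 in HFhf, 0 to 3 and 2 to 9 in IUGR-HFhf, and 9 to 32 and 1 to 2 in IUGR-RC. The IUGR-RC difference gave 0 to 6 by sex, and 0 to 3 larger and 0 to 13 smaller by time. Depth limits the rarest genes, and within single groups of 3 or 4 libraries small differences can be missed.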
